A study of Mus musculus with 4 samples.

Results

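Dorsal spinal cord of the lumbar level on the side of a nerve cut was compared with the same tissue on the opposite side. The mice were young adult males labelled wild type and of strain BL6/C57, with the left sciatic and femoral nerves transected 7 days before RNA was purified. Their cut-side (ipsilateral) and opposite-side (contralateral) dorsal cords gave 1 RNA library each, and lumbar 4 to 6 dorsal root ganglia (DRG) from both sides gave the other 2 of the 4 libraries. All groups share the operation, so the contralateral cord is a reference within operated mice and not uninjured tissue, and pooling of animals within a library is not stated.

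The members are all features at 1 FPKM (sequenced fragments for each kilobase of a transcript, relative to the library's mapped fragments) or more in either cord library. That held for 13351 of the 21883 features listed. Of these, 12361 reached 1 FPKM on both sides, 608 on the ipsilateral side only and 382 on the contralateral side only. The feature just inside this limit was Tnfrsf14, listed at 0 FPKM ipsilaterally and 1.0004 contralaterally, and the one just outside was 4933407K13Rik, at 0.9997 and 0.72 FPKM. The measure throughout is the log2 of (ipsilateral FPKM + 1) over (contralateral FPKM + 1), called the log2 ratio, where a positive value means a higher level on the cut side. The added 1 understates differences of low genes, and plain folds are ratios of the deposited FPKM without it. A feature is called 2-fold higher where this ratio is 1 or more and 2-fold lower where it is -1 or less. A feature that reached 1 FPKM on the ipsilateral side only has a ratio above 0 by that choice. The reverse holds for the contralateral side, so counts above 0 among measured members are partly set by the filter. Any measured gene given below with under 1 FPKM on 1 side passed the limit through the other side only, whether or not this is repeated. With 1 library a side no difference has a replicate check, and none carries a p-value of its own.

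The dorsal horn receives the central branches of the sensory neurons whose peripheral axons run in these nerves, and it processes touch, itch and pain signals through excitatory interneurons and interneurons that release GABA or glycine. Microglia are the resident macrophages of the cord. They depend on signals through the receptor encoded by Csf1r and on the transcription factor PU.1, and they are known to gather and change shape in the dorsal horn after a peripheral nerve is cut.

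The stretches of DNA just upstream of 6 genes that were 2-fold higher ipsilaterally are shown to place 3 sequence motifs beside the expression values. PU.1 is known to bind DNA around the letters GAGGAAGT, and PU.1 together with an interferon regulatory factor at the ETS-IRF composite motif. The AP-1 factors, among them those encoded by Jun and Fos, bind TGAGTCA. Sequences are from RefSeq on build GRCm38.p6, 5′ to 3′ on the gene's strand, and each window ends at the base before the annotated start. Capitals mark the motif, which may lie on either strand. Inpp5d, Vav1, Ptgs1 and Hpgds hold the PU.1 letters, Fcgr2b the composite letters and Sprr1a the AP-1 letters in 2 places. The windows lie upstream of Inpp5d at chr1:87620212-87620311 (plus strand), Vav1 at chr17:57279000-57279099 (plus strand), Ptgs1 at chr2:36230326-36230425 (plus strand), Hpgds at chr6:65144731-65144830 (minus strand), Fcgr2b at chr1:170976072-170976171 (minus strand) and Sprr1a at chr3:92485882-92486031 (minus strand). These genes were chosen because their window holds the letters.
Inpp5d: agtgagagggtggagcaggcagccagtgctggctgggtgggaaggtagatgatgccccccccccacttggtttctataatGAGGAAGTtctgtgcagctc
Vav1: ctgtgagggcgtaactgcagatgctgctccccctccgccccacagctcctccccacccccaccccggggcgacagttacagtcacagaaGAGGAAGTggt
Ptgs1: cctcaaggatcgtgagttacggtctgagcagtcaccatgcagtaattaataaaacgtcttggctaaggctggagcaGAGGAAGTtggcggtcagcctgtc
Hpgds: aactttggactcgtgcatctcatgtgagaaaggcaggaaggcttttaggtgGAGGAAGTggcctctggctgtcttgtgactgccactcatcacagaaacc
Fcgr2b: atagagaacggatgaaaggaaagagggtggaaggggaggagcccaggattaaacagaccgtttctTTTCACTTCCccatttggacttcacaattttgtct
Sprr1a: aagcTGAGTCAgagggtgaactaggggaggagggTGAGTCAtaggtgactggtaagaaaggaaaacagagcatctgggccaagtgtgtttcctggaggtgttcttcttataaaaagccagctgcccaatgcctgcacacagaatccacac
The match starts 20 bases before the annotated start in Inpp5d, 11 in Vav1, 24 in Ptgs1, 49 in Hpgds and 35 in Fcgr2b. In Sprr1a the matches start 146 and 116 bases before it, but the bases that follow its annotated start were not found in 1 stretch in its GENCODE transcripts, unlike those of the other genes shown, so its distances are less certain. Over the 250 bases upstream, the PU.1 letters were found in 8 of the 72 genes with a RefSeq window (11.1%) among 101 myeloid and immune list genes that were 2-fold higher. They were found in 8 of 189 such genes (4.23%) among the 228 other measured genes of those lists. The shares were 2.63% of 10438 measured cord features with a window and 2.44% of all 32851 windows. For the AP-1 letters the same shares were 8.33%, 11.1%, 3.84% and 4.46%, and for the composite letters 4.17%, 4.23%, 2.35% and 2.30%. In smaller sets the PU.1 letters were found in 2 of 24 pan-myeloid and microglia identity genes that were 2-fold higher (8.33%). They were found in 0 of 11 genes with a window among the 15 highest ranked below, and in 1 of 13 (7.69%) among the 15 lowest. A match is a description of the letters and not evidence of binding.

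Depth is not given by the deposited values. Dividing the size of the log2 fold by that of the test statistic in the authors' deposited table gives a standard error. Of the features where it corresponds to 1 read a side, 20 of 20 had a log2 fold within 0.01 of 0.43, which puts the FPKM of 1 ipsilateral read at 1.35 times that of 1 contralateral read. The median standard error from the authors' deposited table was 0.59 (log2) for features with a mean under 3 FPKM, 0.37 from 3 to 10 FPKM, 0.28 from 10 to 30 FPKM and 0.25 above 30 FPKM. Intervals of a fold given below are 95% intervals from that standard error. They describe these libraries and leave out variation between animals. That standard error did not fall from 30 to 100 FPKM (median 0.252) to above 100 FPKM (0.253), so it is not counting error alone.

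Across the measured features, 595 (4.46%) were 2-fold higher and 219 (1.64%) were 2-fold lower ipsilaterally. The median log2 ratio was 0.02, with quartiles of -0.27 and 0.33, and 51.6% of features lay above 0 and 48.4% below. The share 2-fold higher was 8.72% among features with a mean under 3 FPKM, where the standard error is largest, and 2.20% from 10 to 30 FPKM. The authors' deposited table calls 619 measured features significantly higher (4.64%) and 211 significantly lower (1.58%), at q up to 0.05. Small RNA features made up 68 of the measured set, 36 of them 2-fold higher and 20 lower. In DRG, measured in a separate table, 3.04% of features were 2-fold higher and 0.784% 2-fold lower.

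**Figure D1:**
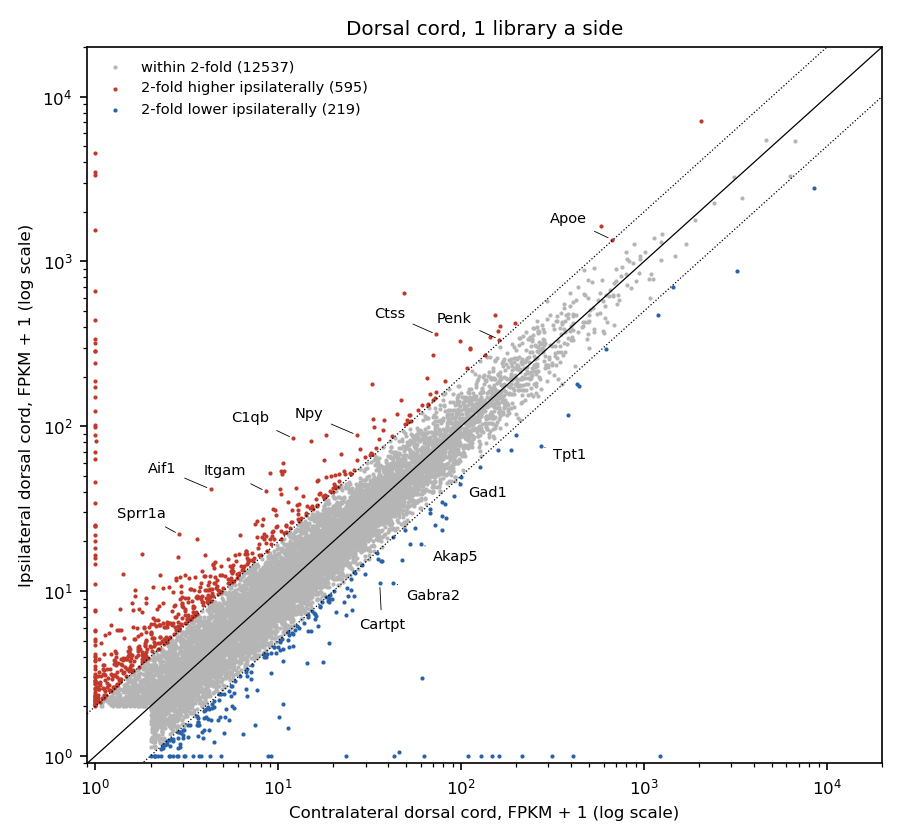
Levels of the 13351 measured features in the ipsilateral (vertical axis) and contralateral (horizontal axis) dorsal cord libraries, as FPKM + 1 on log scales, 1 point a feature. The solid line is equality and the dotted lines are 2-fold differences; 595 points (red) lie at or above the upper line and 219 (blue) at or below the lower one, with myeloid genes such as Aif1, C1qb and Ctss above and Gabra2 and Cartpt below.

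Genes of microglia and other myeloid cells were higher on the cut side almost throughout. Of 26 pan-myeloid genes 23 were measured, 19 were 2-fold higher, 0 were 2-fold lower and all 23 were above 0, with a median log2 ratio of 1.64. Cd68, Fcgr2b, Cd84, Cd37 and Csf3r were among members that reached 1 FPKM on the ipsilateral side only, so the filter placed them above 0. Under the limit were Cd300a at 0.21 against 0.41 FPKM, Cd48 at 0.41 against 0 and Csf2rb at 0.73 against 0.18. The microglia identity list held 21 measured genes, 13 of them 2-fold higher and 20 above 0, with a median of 1.25. In RNA from whole tissue, more cells of a type and more RNA per cell cannot be told apart. The combined 43 genes had a median of 1.44, quartiles of 0.91 and 1.85 and a standard deviation of 0.84. Their median implied standard error in the authors' deposited table was 0.38. That error is of plain log2 folds and is larger for some members, such as Cd68 (0.74). Whether the members differed among themselves by more than their standard error was not tested.

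Aif1, which encodes the actin-binding protein Iba1 (mm9 chr17:35307937-35312946), was at 40.5 FPKM ipsilaterally and 3.26 contralaterally. The 12.4-fold difference runs from 6.10 to 25.2 by the interval of the authors' deposited table. C1qb, a chain of the complement starter C1q (mm9 chr4:136436061-136442092), was at 83.3 against 11.1 FPKM, a 7.53-fold difference (interval 4.66 to 12.2, the authors' deposited table). P2ry12, the ADP receptor that marks resting microglia, was at 30.2 against 8.63 FPKM (log2 ratio 1.70). Its 3.50-fold difference runs from 2.29 to 5.34 by the interval of the authors' deposited table, and its locus entry there is shared with 6 other features. Smaller ratios within the lists were those of Csf2ra, a GM-CSF receptor chain, at 6.68 against 5.30 FPKM (0.28), of Emr1, the F4/80 gene, at 4.01 against 2.36 (0.58), and of the microglial transcription factor gene Sall1 at 10.5 against 8.79 (0.23). Ltc4s was the 1 member below 0, at 0.996 against 1.58 FPKM (-0.37).

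Receptors that sense antibody complexes and their signalling chain were higher in most cases. Of 21 measured Fc receptor and ITAM signalling genes, 13 were 2-fold higher and 0 lower, and the median was 1.44, or 0.86 without the filter at 1 FPKM. The receptor genes Fcgr2b at 9.18 against 0.64 FPKM (2.63), Fcgr1 at 4.84 against 0.31 (2.16) and Fcgr3 at 27.8 against 8.72 (1.57) stood beside the adaptor gene Fcer1g at 40.9 against 11.5 (1.74). Below the receptors, the kinase gene Lyn was at 6.56 against 1.63 FPKM (1.52), the exchange factor gene Vav1 at 5.25 against 1.23 (1.49) and the phospholipase gene Plcg2 at 4.97 against 0.69 (1.82). Genes of the brake on this pathway were higher too, with the lipid phosphatase gene Inpp5d at 4.30 against 0.71 FPKM (1.63) and the protein phosphatase gene Ptpn6 at 11.2 against 3.48 (1.44). The authors' deposited table calls all of these genes. The kinase gene Sykb (Syk) was at 1.69 against 1.24 FPKM (0.27) and Sirpa, the receptor for CD47 and also a neuronal gene, at 63.3 against 52.5 (0.27). Lat2 at 1.60 against 2.02 FPKM (-0.22) and Sh3bp2 at 1.24 against 1.63 (-0.23) were below 0.

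Subunits of the phagocyte NADPH oxidase, which makes superoxide, followed. All 5 measured genes of 7 listed were 2-fold higher, among them Cyba, the membrane subunit p22phox, at 7.98 against 1.90 FPKM (1.63) and the cytosolic subunit gene Ncf4 at 2.05 against 0.032 (1.57). Ncf4 reached 1 FPKM on the ipsilateral side only. The catalytic subunit gene Cybb stayed at 0.24 FPKM ipsilaterally and 0.21 contralaterally, under the limit for measurement.

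Of 24 listed microglial G protein-coupled receptor genes 12 were measured. All 12 were above 0 and 6 were 2-fold higher, with a median of 1.03. Besides P2ry12, the lysophosphatidylserine receptor gene Gpr34 was at 16.4 against 5.63 FPKM (1.39) and the UDP receptor gene P2ry6 at 1.60 against 0.095 (1.25). P2ry6 reached 1 FPKM on the ipsilateral side only, as did Gpr160, at 1.54 against 0.11 FPKM (1.20). Of 29 genes of the leukocyte cytoskeleton, 12 were 2-fold higher and 0 lower, and the median was 0.89. They included Dock2, an activator of Rac in leukocytes, at 5.63 against 1.11 FPKM (1.65) and the myosin gene Myo1f at 4.19 against 0.44 (1.85). Actin itself, Actb, which every cell uses, was at 620 against 677 FPKM (-0.13).

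Of 16 measured transcription factors of the myeloid lineage, 5 were 2-fold higher and 0 lower, and the median was 0.60. Sfpi1, the table's symbol for the PU.1 gene, was at 5.18 against 1.22 FPKM (1.48), Irf8 at 5.44 against 1.52 (1.36) and Ikzf1, encoding Ikaros, at 2.55 against 0.39 (1.35). The authors' deposited table calls these 3. Cebpb, a factor of activated macrophages, was at 1.43 against 1.56 FPKM (-0.08).

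**Figure D2:**
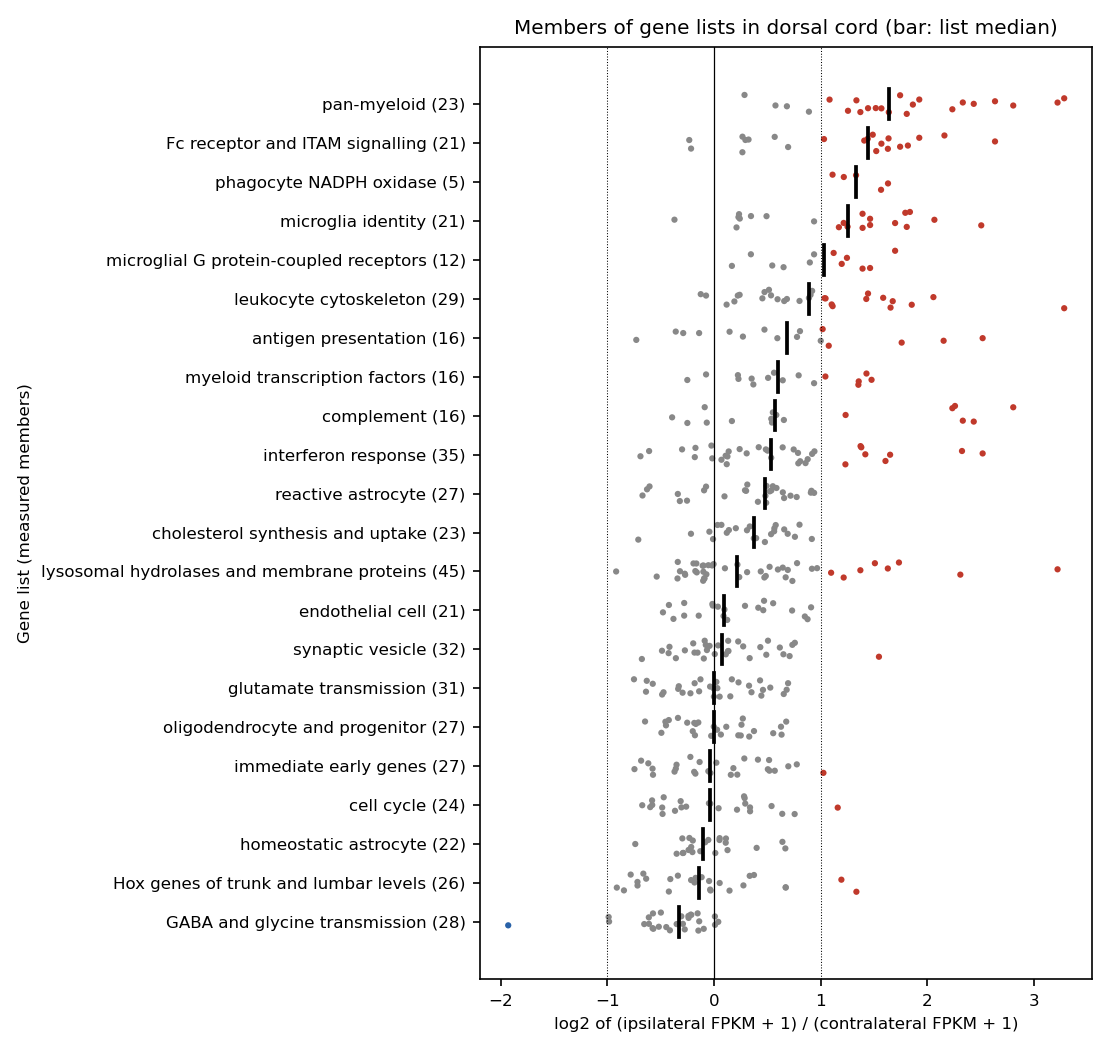
Log2 ratio (horizontal axis) of every measured member of 22 gene lists in dorsal cord, 1 point a gene, with the number measured beside each name. Black bars are list medians, red points are 2-fold higher and blue ones 2-fold lower; pan-myeloid genes have the highest median shown (1.64) and genes of GABA and glycine transmission the lowest (-0.33).

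Complement and antigen presentation genes were higher in part. Of 16 complement genes 6 were 2-fold higher (median 0.57), including the C1q chains and the CR3 integrin genes Itgam and Itgb2. C3, the central component, was at 12.8 against 8.48 FPKM (0.54). Of 16 antigen presentation genes 5 were 2-fold higher (median 0.69), led by the lysosomal reductase gene Ifi30 at 15.2 against 1.82 FPKM (2.52). The costimulatory gene Cd86 was at 3.32 against 0.28 FPKM (1.76), while the class II chain gene H2-Eb1 was at 0.67 against 1.77 (-0.73). Of 35 interferon response genes 8 were 2-fold higher and 28 above 0 (median 0.54), among them Parp14 at 2.85 against 0.48 FPKM (1.38) and Lgals3bp at 14.8 against 5.72 (1.23). Cmpk2, also on this list, was at 11.6 against 18.3 FPKM (-0.61).

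Lysosomal genes split. Of 45 measured, 8 were 2-fold higher, 0 were 2-fold lower and 21 were below 0, with a median of 0.22. The higher ones included the cathepsin gene Ctsh at 12.8 against 3.46 FPKM (1.63), the progranulin gene Grn at 26.5 against 7.28 (1.73) and the hexosaminidase gene Hexa at 46.0 against 15.5 (1.51). Cd63, a membrane protein of late endosomes, was at 53.4 against 102 FPKM (-0.92) and is called lower in the authors' deposited table. Hydrolase genes that most cells use were closer between sides, such as Glb1 at 5.77 against 8.84 FPKM (-0.54) and Smpd1 at 38.9 against 47.3 (-0.28).

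Of 15 eicosanoid pathway genes 4 were 2-fold higher, and the median was 0.12. Ptgs1, cyclooxygenase 1, the step that all prostanoids share, was at 9.02 against 2.67 FPKM (1.45), the thromboxane synthase gene Tbxas1 at 2.56 against 0.11 (1.67) and Hpgds, the haematopoietic prostaglandin D synthase, at 7.61 against 2.20 (1.43). Ptgds, the prostaglandin D synthase of meninges and oligodendrocytes, was at 191 against 151 FPKM (0.34). Of the PGE2 receptor genes, Ptger1 was at 3.05 against 0.89 FPKM (1.10) and Ptger4 at 0.75 against 2.50 (-0.995). The authors' deposited table calls Ptgs1, Tbxas1 and Hpgds higher and Ptger4 lower, and Ptger1 had q = 0.0833 there.

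Lipid genes were higher by smaller steps. Apoe, the main lipid carrier of the nervous system, was at 1356 against 666 FPKM (1.02), a 2.04-fold difference (interval 1.36 to 3.04, the authors' deposited table). The exporter gene Abca1 was at 12.1 against 5.61 FPKM (0.98) and the LXR alpha gene Nr1h3 at 1.68 against 0.31 (1.03). Of 17 cholesterol efflux and lipid handling genes 3 were 2-fold higher (median 0.34). After a correction for transcript GC content, described below, 0 were, with Apoe at 0.82 and Nr1h3 at 0.84. Of 23 cholesterol synthesis and uptake genes 19 were above 0 and 0 were 2-fold higher, with a median of 0.37, for example Nsdhl at 22.6 against 11.5 FPKM (0.92). Genes of the phagocyte state described in neurodegeneration were mixed, with 5 of 19 2-fold higher and a median of 0.34. Cst7 was at 2.03 FPKM against 0, Lgals3 at 1.53 against 0.034 (1.29) and Fabp5 at 175 against 95.3 (0.87), while Itgax and Gpnmb stayed under 1 FPKM on both sides and Spp1 was at 20.2 against 16.4 (0.29).

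Of 40 chemokine and chemokine receptor genes 16 were measured, 3 were 2-fold higher and the median was 0.00. The 3 are 18.8% of those measured, against 4.46% of all features. Among them Cxcl10, an interferon-induced chemokine gene, was at 2.23 against 0.047 FPKM (1.62). It reached 1 FPKM on the ipsilateral side only, and the interval of its fold runs from 5.84 to 381 by the authors' deposited table. Cx3cr1, which encodes the receptor for fractalkine, stood at 36.6 against 12.6 (1.46). Il1b and Tnf are listed at 0 on both sides, as are some genes that every cell uses: 2 of 70 cytosolic ribosomal protein genes are listed at 0 on each side. Of 22 interleukin and TNF family genes 3 were 2-fold higher (median 0.28): Tnfsf12, encoding TWEAK, at 9.09 against 2.96 FPKM (1.35), the interleukin 6 receptor gene Il6ra at 4.16 against 1.05 (1.33) and Tnfaip8l2 at 1.55 against 0.044 (1.29). Tgfb1, a cytokine that microglia both make and depend on, was at 4.83 against 0.34 FPKM (2.12). Its 14.1-fold difference runs from 5.07 to 39.0 by the interval of the authors' deposited table. Its receptor chain gene Tgfbr2 was at 12 against 5.79 FPKM (0.93), and Tgfb2 at 6.26 against 11.3 (-0.76).

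Innate sensing and transport genes of microglia were higher in part. Of 18 Toll-like receptor and inflammasome genes 5 were 2-fold higher (median 0.35), with Cd14, the lipopolysaccharide co-receptor, at 3.13 against 0.53 FPKM (1.43) and the trafficking factor gene Unc93b1 at 10.1 against 3.45 (1.32). Tlr2 was at 1.63 against 1.12 FPKM (0.31), and Ly96, the partner of Tlr4, at 1.23 against 2.95 (-0.82). Of 17 microglial channel and transporter genes 5 were 2-fold higher (median 0.43), among them the potassium channel gene Kcnk6 at 3.08 against 0.58 FPKM (1.36) and the proton channel gene Hvcn1 at 5.97 against 1.77 (1.33). After the GC correction 3 of the 17 were. P2rx7, the ATP-gated channel of these cells, was at 4.58 against 4.44 FPKM (0.04). Of 18 leukocyte integrin and adhesion genes 3 were 2-fold higher (median 0.14), namely Itgb2, Itgam and Selplg, while Cd47 was at 16.7 against 29.7 FPKM (-0.80).

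Genes of the cell cycle did not show a common direction. Of 45 listed, 24 were measured, 1 was 2-fold higher (4.17%, against 4.46% of all features), 11 were above 0 and the median was -0.04. The cyclin gene Ccna2 was at 3.15 against 0.86 FPKM (1.16), whereas the survivin gene Birc5 was at 1.77 against 3.42 (-0.67). Mki67, Top2a, Cdk1 and Ccnb1 stayed under 1 FPKM on both sides. Outside the list, Cenpm, a centromere protein gene, was at 0.54 against 6.48 FPKM (-2.28) and Cks2, a partner of cyclin-dependent kinases, at 0.35 against 5.38 (-2.24); the authors' deposited table calls both lower.

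Markers of other cells that the tissue could hold were checked against the cord label. Spinal genes were present, with the caudal Hoxc10 at 93.4 FPKM ipsilaterally and 95.8 contralaterally and Slc17a6, the transporter of excitatory dorsal horn neurons, at 68.4 and 95.4. Of the border macrophage list 3 of 16 genes were measured, with a median of 0.72: Fn1 at 7.11 against 3.71 FPKM (0.78, called higher in the authors' deposited table), Lyve1 at 1.21 against 0.34 (0.72) and Ly6c2 at 3.75 against 4.48 (-0.21). In that list Mrc1, Cd163 and F13a1 stayed under 0.5 FPKM on both sides, with Pf4 listed at 0. Of the lymphocyte list 1 of 21 genes was measured, Thy1, which neurons also express. The other 18 found in the table were under 1 FPKM on both sides, such as the T cell genes Cd3g at 0.33 against 0 FPKM and Lck at 0.029 against 0.85. The neutrophil gene S100a9 was listed at 0, S100a8 at 0.87 against 0.22 FPKM, and the Schwann cell gene Prx was at 0.2 FPKM or less on both sides. Of the sensory ganglion list 6 of 20 genes were measured, 3 of them 2-fold higher, with a median of 0.67. Its defining genes Scn10a, Scn11a, Avil and Trpv1 were under 0.1 FPKM on both sides. Sncg, encoding gamma-synuclein, was at 108 against 36.9 FPKM (1.53), Prph at 8 against 3.14 (1.12) and Calca, encoding CGRP, at 2.91 against 0.56 (1.32). The authors' deposited table calls Sncg, but not Prph (q = 0.0598) or Calca (q = 0.0883). Prph and Calca are also on the motor neuron list. Of its 8 measured genes 2 were 2-fold higher and 5 were below 0, with a median of -0.02. In DRG, where these neurons have their cell bodies, Sncg was at 2572 FPKM ipsilaterally and 2848 contralaterally. Ependymal genes also lay on the higher side, with 12 of 13 above 0, 4 of them 2-fold higher and a median of 0.58, for example Foxj1 at 7.14 against 4.46 FPKM (0.58) and Ccdc153 at 8.18 against 3.22 (1.12). The authors' deposited table calls none of them. Of the red blood cell list 3 of 9 genes were measured, with Hbb-b2 at 16.0 against 33.8 FPKM (-1.03) and Hba-a1 at 123 against 179 (-0.53). The part of these other cell types in the differences was not tested.

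Reactive astrocyte genes were above 0 in 19 of 27 cases (70.4%, against 51.6% of all features), with 0 past 2-fold by the log2 ratio (median 0.48). Gfap, the astrocyte filament gene, was at 881 against 469 FPKM (0.91), a 1.88-fold difference with an interval of 1.23 to 2.88 and q = 0.0572 in the authors' deposited table. Nes was at 5.21 against 2.24 FPKM (0.94) and Vim at 32.0 against 20.1 (0.64). Without the added 1 the fold of Nes was 2.32 (interval 1.44 to 3.76), and it is the 1 gene of the list called in the authors' deposited table. Lcn2 and Timp1 stayed under 0.5 FPKM on both sides. The 22 homeostatic astrocyte genes had their median at -0.11, with Aqp4 at 163 against 157 FPKM and S100b at 409 against 683 (-0.74). Oligodendrocyte lineage genes had a median of 0.00 over 27 and endothelial genes 0.10 over 21, each with 0 past 2-fold by the log2 ratio. The authors' deposited table calls 1 of the endothelial genes higher, Vwf, whose plain fold was 2.46, and 0 of the oligodendrocyte lineage.

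Genes of GABA and glycine transmission lay below 0 as a list. Of 28 measured genes 25 were below 0, where 48.4% of all measured features were, and 1 was 2-fold lower, with a median of -0.33. Gabra2, the alpha2 subunit of the GABA-A receptor (mm9 chr5:71352296-71487088), was at 10.1 FPKM ipsilaterally and 41.5 contralaterally. Its 4.09-fold lower level runs from 2.69 to 6.22 by the interval of the authors' deposited table. Gad1, the larger of the GABA-synthesizing enzymes (mm9 chr2:70400221-70440069), was at 45.8 against 91.8 FPKM (-0.99), 2.01-fold lower (interval 1.43 to 2.82, the authors' deposited table). Gphn, the scaffold gephyrin, was at 26 against 39.3 FPKM (-0.58) and is the third gene of the list called lower in the authors' deposited table. The other enzyme, Gad2, was at 38.6 against 43.1 FPKM (-0.15) and the vesicular transporter gene Slc32a1 at 54.9 against 70.3 (-0.35). On the glycine side, the transporter gene Slc6a5 was at 65.4 against 104 FPKM (-0.66, q = 0.0564 in the authors' deposited table), the alpha3 receptor gene Glra3 at 4.86 against 10.6 (-0.98) and Glrb at 75.4 against 112 (-0.57). The 3 genes above 0 were the GABA-B receptor genes Gabbr1 at 228 against 227 FPKM and Gabbr2 at 37.5 against 37.3, and Gabrg3 at 5.73 against 5.55. Slc12a5, the chloride exporter KCC2 on which inhibition depends, was at 103 against 114 FPKM (-0.14).

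Excitatory and general synaptic genes did not share this direction as lists. Of 31 glutamate transmission genes 15 were above 0, with a median of 0.00 and 0 past 2-fold. The AMPA receptor gene Gria1 was at 70.5 against 51.6 FPKM (0.44) and Gria4 at 44.9 against 67.3 (-0.58). The excitatory transporter gene Slc17a6, whose levels are given above, was lower ipsilaterally. Slc17a8 was lower too, at 0.41 of its contralateral FPKM. Of 32 synaptic vesicle genes 18 were above 0 (median 0.07). The 1 past 2-fold (3.1%, against 4.46% of all features 2-fold higher) was Stx1a, syntaxin 1A, at 13.1 against 3.85 FPKM (1.55). The authors' deposited table calls 5 of the 32 higher and 0 lower, Rims1 at 29.8 against 17.2 FPKM (0.76) and Sncb at 315 against 189 (0.73) among them. The 28 genes of sodium, calcium and HCN channels had their median at 0.04. Whether the inhibitory list differs from these lists was not tested. Akap5, which anchors kinases at excitatory synapses, was at 18.2 against 59.2 FPKM (-1.65), 3.26-fold lower (interval 2.30 to 4.61, the authors' deposited table).

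Log2 ratios in cord shifted with the GC content of the transcript, from a class median of -0.23 at 31.2 to 41.4% GC to 0.22 at 58.5 to 60.2% GC, over 20 classes. In DRG the same classes ranged less, from 0.09 to -0.04. Taking each class median off, in an alternative added after the data were seen, gave medians of 1.68 for pan-myeloid genes, 1.20 for microglia identity genes and -0.34 for GABA and glycine transmission, whose genes have a median GC content of 45.7%. After the correction 3.71% of all measured features were 2-fold higher and 1.78% 2-fold lower. The inhibitory list then still held 25 genes below 0, where 50% of all features lie by construction.

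**Figure D3:**
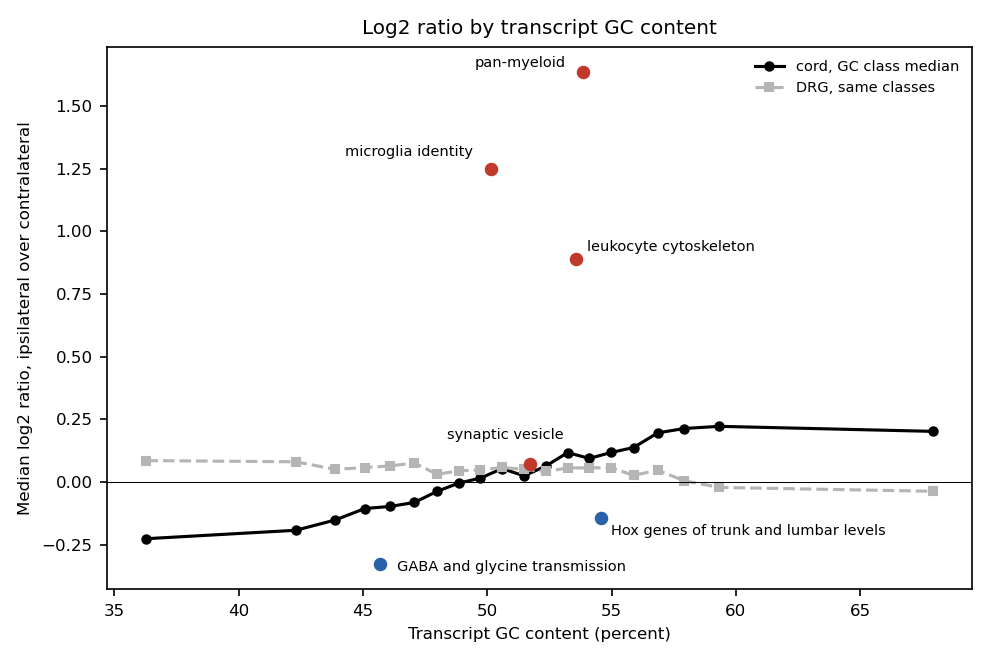
Median log2 ratio, ipsilateral over contralateral (vertical axis), of 20 classes of features by transcript GC content in percent (horizontal axis), each class drawn at the middle of its range, for cord (black) and DRG (grey). Coloured points are medians of 6 cord gene lists at their median GC content; the pan-myeloid median of 1.64 lies far above the class medians, which run from -0.23 to 0.22.

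Neuropeptide genes did not share a direction. Of 23 measured, 6 were 2-fold higher, 2 were lower to that extent, and the median was -0.03. Npy was at 87.3 against 25.9 FPKM, a 3.37-fold difference (interval 2 to 5.67, the authors' deposited table), and Gal, encoding galanin, at 33.8 against 10.3 FPKM, 3.27-fold (interval 1.77 to 6.05, the authors' deposited table). Penk, the enkephalin precursor of dorsal horn interneurons, was at 335 against 160 FPKM (1.06) and Tac2, the neurokinin B precursor, at 105 against 50.1 (1.05). After the GC correction 4 genes of the list were 2-fold higher, and the authors' deposited table calls 4 higher and 1 lower. Npff was at 5.87 against 1.06 FPKM (1.74), with q = 0.122 in the authors' deposited table. Cartpt, the CART precursor, was lower at 10.1 against 34.8 FPKM (-1.69), and was lower in DRG too, at 6.41 against 18.0 FPKM (-1.35). Sst, encoding somatostatin, was at 266 against 326 FPKM. Of 27 neuropeptide receptor genes 18 were below 0, where 48.4% of all measured features were. The 1 that was 2-fold higher (3.70%, against 4.46% of all features) was the natriuretic peptide receptor gene Npr1 at 2.45 against 0.45 FPKM (1.25).

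Among 30 dorsal horn transcription factor genes, 5 were 2-fold higher and 15 were above 0. Gbx1, a homeobox gene of dorsal horn interneurons (mm9 chr5:24010244-24032666), was at 6.74 against 0.36 FPKM, 18.9-fold (interval 6.23 to 57.1, the authors' deposited table). Lbx1 was at 13.5 against 3.38 FPKM (1.73), Pax8 at 7.62 against 2.85 (1.16), Otp at 2.07 against 0.25 (1.297) and Mafa at 1.56 against 0.046 (1.29). Pax2, a factor of inhibitory neurons, was at 5.01 against 3.29 FPKM (0.49). Nfib was called lower in the authors' deposited table, at 12.4 against 20.1 FPKM (-0.66).

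Hox genes mark position along the body axis and were listed as markers of the level taken on each side. Of 26 measured, 17 were below 0, with a median of -0.15 and 0 called in the authors' deposited table. Genes of the more rostral groups were lower ipsilaterally in several cases, with Hoxa4 at 4.63 against 9.59 FPKM (-0.91), Hoxb4 at 6.69 against 12.8 (-0.85) and Hoxa5 at 14.1 against 24.9 (-0.78). Hoxc10 and Hoxd10 were close between sides, the latter at 29.0 against 29.7 FPKM. Hoxa6 was at 10.6 against 3.60 FPKM (1.33) and Hoxd11 at 1.29 FPKM against 0. Hoxa4, Hoxa5 and Hoxa6 share a locus entry, each with 4 other features there. The authors' counting can split reads at such an entry, so their separate ratios are uncertain. Whether the sides were dissected at the same level was not tested.

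The unfolded protein response list had its median at 0.09 over 24 genes with 0 past 2-fold, and the p53 list at -0.08 over 17 with 0. The chaperone list had its median at 0.08 over 17 with 1 (5.88%, against 4.46% of all features) 2-fold higher, Hspe1 at 125 against 57 FPKM (1.12). Psat1, an enzyme of serine synthesis, was at 47.9 against 91.8 FPKM (-0.92) and is called lower in the authors' deposited table. The collagen, pericyte and meningeal lists lay higher than these as deposited. Collagen and basement membrane genes had their median at 0.27, with 17 of 23 above 0, and pericyte genes at 0.34, with 9 of 11 above 0. Each had 0 past 2-fold by the log2 ratio. The authors' deposited table calls 1 gene of each list higher, Fn1 and Myh11 in turn, with plain folds of 1.91 and 2.41. The meningeal list had its median at 0.38, with 8 of 11 above 0 and 1 2-fold higher, Serpinf1 at 13.4 against 4.68 FPKM (1.34). Serpinf1 and Col1a1, the latter at 1.58 against 0.43 FPKM (0.85), are called higher in the authors' deposited table. After the GC correction the median was 0.13 for collagen and basement membrane genes, 0.14 for pericyte genes and 0.36 for the meningeal list. That of the chaperone list was then 0.09. Of 18 genes of arginine, nitric oxide and iron 1 (5.56%, against 4.46% of all features) was 2-fold higher, Arg2 at 2.66 against 0.34 FPKM (1.45). The transferrin receptor gene Tfrc was at 27.1 against 47.2 FPKM (-0.78).

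Immediate early genes had a median of -0.03 over 27 genes, with Fos at 5.84 against 9.21 FPKM (-0.58), Jun at 16.5 against 11.2 (0.52) and Ier5 at 7.52 against 3.19 (1.02). Of the nerve injury genes known from sensory neurons, 5 of 24 were 2-fold higher. Sprr1a, whose upstream window is shown above, was at 21.1 against 1.87 FPKM in cord (mm9 chr3:92287876-92289803), an 11.3-fold difference (interval 4.65 to 27.3, the authors' deposited table). In DRG it was at 782 against 6.25 FPKM.

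**Figure D4:**
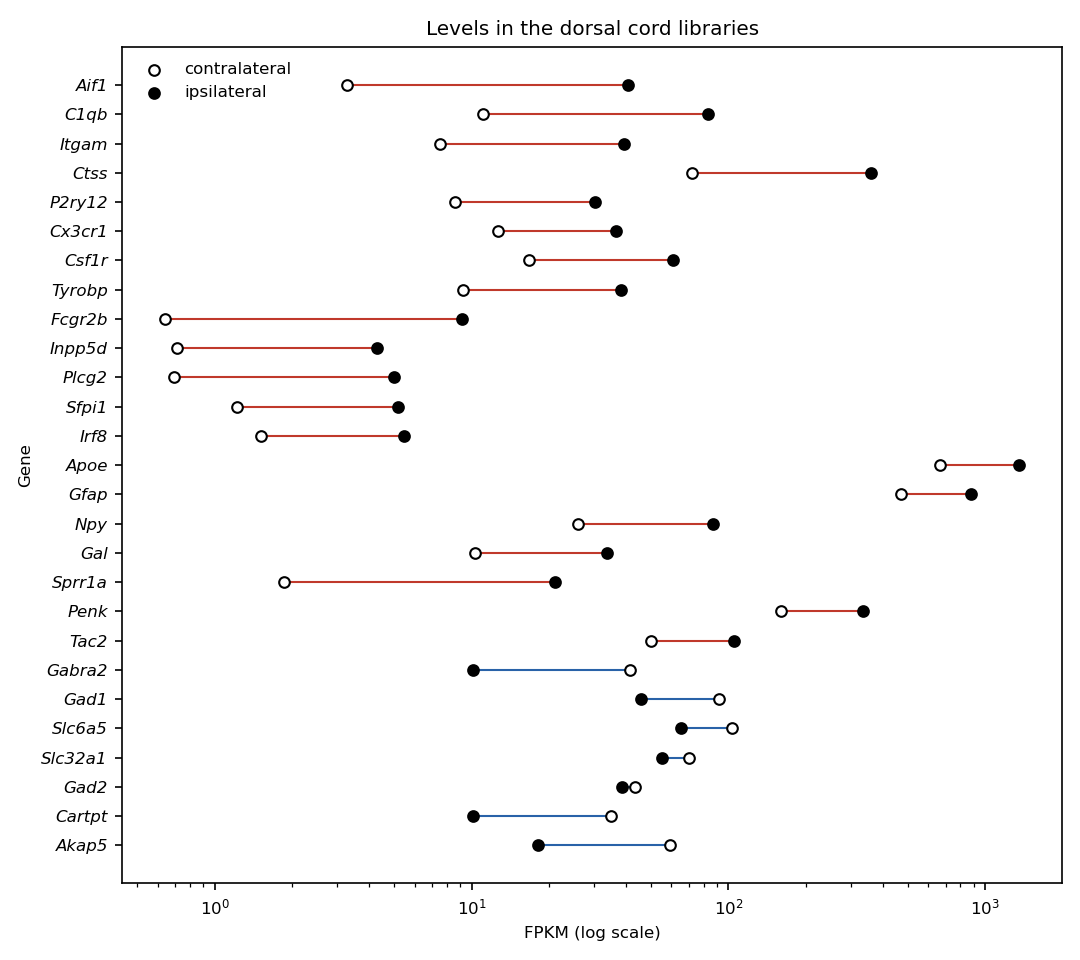
FPKM (horizontal axis, log scale) of 27 genes in the ipsilateral (filled) and contralateral (open) dorsal cord libraries, 1 library a side, joined by a red line where the ipsilateral level is higher and a blue line where it is lower. Myeloid genes such as Aif1 (40.5 against 3.26 FPKM) spread widest, and Gad2 (38.6 against 43.1) is nearly level.

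Ranking the features at 5 FPKM or more in the higher library that the authors' deposited table marks as tested and significant left 627, of which 446 were higher and 181 lower. The 15 highest included 4 pan-myeloid genes, together with Sprr1a, Gbx1, Ifi30, Olfml3 and the troponin gene Tnnc1 at 19.6 against 2.60 FPKM (2.52). Plac9, encoding a small secreted protein, was at 24.3 FPKM ipsilaterally and listed at 0 contralaterally. The 15 lowest included Gm1673 at 0.49 against 10.3 FPKM (-2.92), the ribosomal-like gene Rps27l at 2.73 against 16.5 (-2.23), the histone gene Hist3h2ba at 3.81 against 18.0 (-1.98), Gabra2, Cartpt, Akap5 and Fibp at 14.4 against 46.5 (-1.63). In DRG 7 of the 15 highest were also 2-fold higher and 2 of the lowest, Cartpt and Akap5, 2-fold lower, against 3.04% and 0.784% of all DRG features. Akap5 was at 1.68 against 10.1 FPKM there.

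**Figure D5:**
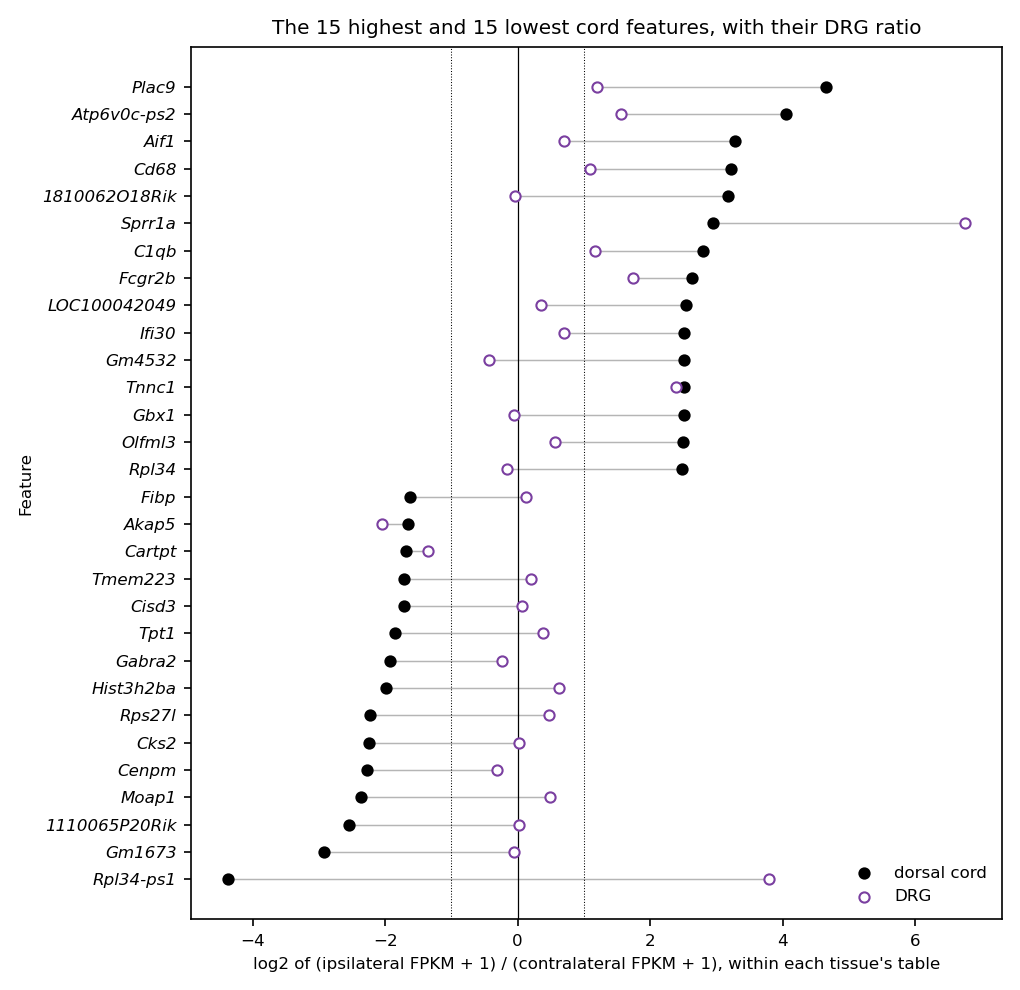
Log2 ratio (horizontal axis) in dorsal cord (filled) and in DRG (open) of the 15 highest and 15 lowest cord features, each ratio taken within its tissue's own table. Sprr1a, Tnnc1, Akap5 and Cartpt lie past 2-fold (dotted lines) on the same side in both tissues, and Rpl34-ps1 lies far apart, at -4.37 in cord and 3.80 in DRG.

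Some of the most extreme values belong to features that share a locus entry, where the authors' counting can split reads. Such features made up 15.7% of the measured set, 22.5% of the 2-fold higher and 26.5% of the 2-fold lower features, and 4 of the 15 highest and 4 of the 15 lowest. Rpl34 was at 181 against 31.4 FPKM (2.49) and Rpl34-ps1, at the same locus, at 1.96 against 60.3 (-4.37). Their sum was 183 against 91.7 FPKM (0.99). Tpt1 (-1.85) and Moap1 (-2.37) among the lower, and Nnat at 269 against 69.4 FPKM (1.94) among the higher, share a locus entry too and are uncertain for that reason. The same limit applies to other genes named above, among them Cxcl10, Gpr34, Dock2, Hvcn1, Ccna2 and Arg2. Ribosomal protein genes, which have many near-identical copies, had a median of 0.33 over 67 genes with 10 2-fold higher, Rpl28 among them at 98.1 against 32.5 FPKM (1.56). Respiratory chain genes had a median of -0.10 over 47. Of these, 3 (6.38%, against 4.46% of all features) were 2-fold higher and 2 lower, such as Atp5k at 1638 against 581 FPKM (1.49) and Atp5j at 179 against 431 (-1.27).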

How the data were processed

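RNA was measured in 2 cord and 2 DRG libraries, 1 per group. Extraction was by QIAGEN RNeasy Mini Kit and library preparation by Epicentre's ScriptSeq mRNA-Seq reagents, per the labels' protocols. TopHat 1.4.0, Cuffdiff 1.3.0 and build mm9 were used, per the submitters' processing notes. The gene models, read filters and strandedness of counting are not given in the sources here. The authors deposited 1 table per tissue with levels in FPKM, which divide by transcript length and library size, and each was normalised separately. The tables also hold the authors' p-values and q-values and the test statistic, a score, all comparing 1 library with 1 library. The deposited log2 fold column of cord runs contralateral over ipsilateral, with a test statistic of opposite sign, so direction came from the FPKM columns and standard errors from absolute values.

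From these, log2 ratios with a pseudocount of 1 FPKM were computed (Python 3.11.15, pandas 2.3.3, numpy 2.4.6, scipy 1.17.1), with a minimum of 1 FPKM in either library. The computation was tested on simulated data. Standard errors are the absolute log2 fold over the absolute test statistic in the authors' deposited table. GC content came from GENCODE M21 transcripts for 13190 features (98.8%). Of the genes on 54 lists, 1294 were found, 21 under an older symbol. The members and lists were chosen with earlier results of these data known. Named genes are the 15 highest and 15 lowest ratios at 5 FPKM or more among features tested and significant in the authors' deposited table (small RNA features left out), up to 5 members per list with the largest absolute ratio, and the defining cell type markers. Others were picked once their values were known. Alternatives were pseudocounts of 0.1 and 3 FPKM, other filters and scalings, test status, small RNA features and the authors' calls, and a GC correction added after the data were seen. Columns of per-sample values left out numbered 0.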

Additional observations from a re-analysis of the deposited data

Results flagged for a closer look

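Listed here are genes past 2-fold in opposite directions in cord and DRG, at 5 FPKM or more in the higher library of each, and gene lists with medians beyond 0.25 in opposite directions. Lists with smaller opposite medians, such as antigen presentation (0.69 in cord, -0.20 in DRG), are not. None of these differences was tested, since each tissue has 1 library a side. Mtrnr2l, a small feature of mitochondrial RNA sequence, had a log2 ratio of 2.28 in cord (50.3 FPKM ipsilaterally, 9.54 contralaterally) and -1.57 in DRG (1.48 and 6.38). Rpl34-ps1, which shares a locus entry with Rpl34, had a ratio of -4.37 in cord (1.96 and 60.3 FPKM) and 3.80 in DRG (17.3 and 0.31). The interferon response list had a median of 0.54 in cord and -0.30 in DRG. The sensory ganglion neuron list had a median of 0.67 over 6 measured genes in cord and -0.66 in DRG.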

How the results depend on the processing

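The counts moved most with the treatment of low values. At a pseudocount of 0.1 FPKM 964 features were 2-fold higher and 481 lower, and at 3 FPKM 264 and 81. A filter at 5 FPKM left 373 and 130, and requiring the authors' call in the deposited table as well left 389 and 93. Rescaling, removal of small RNA features, test status and the authors' calls in place of the fold kept both counts within 1.5 times of 595 and 219, as did the GC correction (495 and 238) and a 2-fold difference both before and after it (456 and 183), both chosen after the data were seen. The share higher was 73.1% as reported, 66.7% at the lower pseudocount, 80.7% with the authors' call and 67.5% after the GC correction. Of 163 named genes past 2-fold, 104 were still past it at a pseudocount of 3 FPKM, 159 after upper-quartile rescaling and 149 after the GC correction. Without a filter on low values the median of the Fc receptor and ITAM list was 0.86 (1.44 as reported), of the sensory ganglion list 0.11 (0.67) and of the red blood cell list -9.05e-04 (-0.53), and at a filter of 5 FPKM that of the Toll-like receptor and inflammasome list was 1.20 (0.35) and of the complement list 1.23 (0.57). The other medians moved by less than the members' standard error. Features under 3 FPKM have the largest standard error, so small differences there were not detectable. No paired analysis was possible because each group has 1 library, and for the same reason no library could be left out.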
